A study of Homo sapiens with 2 samples.

Results

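The genes described here are 10 members of the insulin-like growth factor (IGF) axis: the ligand gene IGF2, the non-coding H19, the receptor genes IGF2R, IGF1R and INSR, the adaptor genes IRS1 and IRS2, and the RNA-binding protein genes IGF2BP1, IGF2BP2 and IGF2BP3. They were chosen by gene symbol, and all 10 were found among the 23709 genes of the table. The samples are Caco-2 cells, an established human colorectal adenocarcinoma line, grown in DMEM with fetal bovine serum, penicillin/streptomycin and ciprofloxacin, and both groups share these conditions with no other treatment named. Polyadenylated RNA was sequenced once from total RNA (the mRNA library) and once from RNA recovered with ribosomes and their nascent chains (the RNC-mRNA library). The question put by this pair of libraries is how RNA carried on translating ribosomes differs from the total pool. Whether a single culture supplied both preparations is not stated.

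IGF2 is a secreted growth factor of fetal tissues that signals through the tyrosine kinase receptors IGF1R and INSR. IGF2R binds the same ligand without a kinase domain and carries it to lysosomes, and IRS1 and IRS2 pass the kinase signal on to PI3K and AKT. IGF2 and H19 are neighbouring imprinted genes, normally read from opposite parental alleles. The IGF2BP proteins were named for their binding to IGF2 mRNA and are, like IGF2 itself, known as oncofetal products.

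Levels are in RPKM, reads scaled by transcript length and library total, so they can be compared between genes. Where a pair of levels is given, the first is that of the mRNA library. For the relative ratio, 0.1 RPKM was added to both levels, the second was divided by the first, and the log2 value was set against the median of the 13402 expressed genes (a mean of at least 1 RPKM). Negative values mark genes lower in the RNC-mRNA library than the median gene. With 1 library of each kind there is no replicate check and no test, and a 2-fold difference from the median served as a rule of size. The libraries held 9640364 and 11083302 reads, worked out from the steps of the RPKM values. The 95% counting intervals are exact (Clopper-Pearson), rest on the fewest reads that fit both values of a gene, and cover counting error only. Each library averages a whole culture, so fewer cells holding an RNA and less of it per cell cannot be told apart. Of the 15 intestinal epithelial markers fixed as a list, 14 were expressed, with KRT8, an epithelial keratin, at 1490 and 1693 RPKM and its partner KRT18 at 1163 and 1101 RPKM. The intestinal factor CDX2 was at 79.8 and 87.8 RPKM, and the list ran from -0.69 for the brush border peptidase ANPEP to 0.34 for the transcription factor HNF4A in relative ratio. KRT20, a marker of mature colonocytes, was not among them, on as few as 17 reads in the mRNA library and 1 read in the RNC-mRNA library. Of 8 fibroblast markers, 7 were expressed, and the list summed to 84.0 and 60.5 RPKM. Of these 7, 4 lay above the median gene and 3 below (median 0.04). The fibrillar collagen genes COL1A1 (46.8 and 26.1 RPKM, -0.80) and COL1A2 (14.97 and 7.087 RPKM, -1.03) were lower in the RNC-mRNA library. The matrix proteoglycan LUM (11.03 and 14.97 RPKM, 0.48) and the growth factor receptor PDGFRA (1.42 and 3.72 RPKM, 1.37) were higher, and THY1 was at 0 and 0.0376 RPKM. Of 5 immune and 4 endothelial markers, 1 each was expressed (CD68 at 13.0 and 12.5 RPKM, PECAM1 at 4.12 and 1.58 RPKM). The lists summed to 14.0 and 12.9 RPKM and to 4.93 and 2.07 RPKM, and the leucocyte marker PTPRC was at 0.363 and 0.0332 RPKM. The part of these transcripts in the values below was not tested.

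All 10 members passed the filter on low values. Their levels ran from 2.15 RPKM for IRS2 to 5280 RPKM for IGF2 in the mRNA library, a 2457-fold range, and from 1.47 to 4698 RPKM in the RNC-mRNA library, a 3196-fold range. Of the 10, 1 was at least 2-fold below the median gene, where 11.8% of all expressed genes were. None was at least 2-fold above it, where 1.37% of all expressed genes were (13.1% in either direction). The members' count below is near the background. The median relative ratio of the members was -0.18, with 7 below the median gene and 3 above it.

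**Figure D1:**
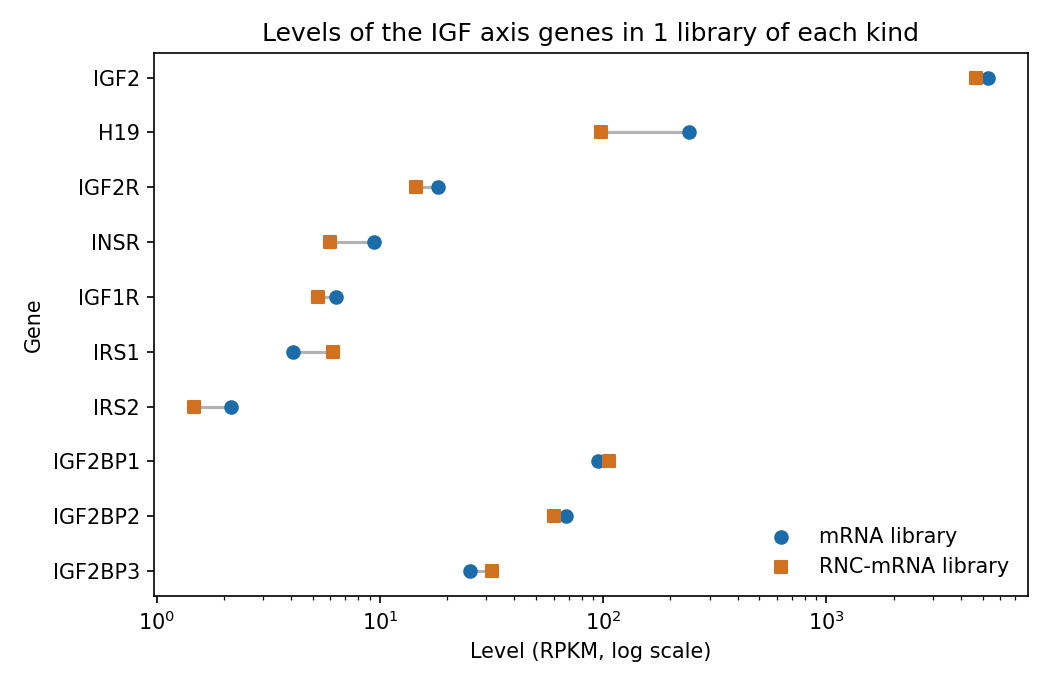
Level of each of the 10 IGF axis genes in RPKM on a log axis, with a circle for the mRNA library and a square for the RNC-mRNA library (1 library of each kind, no error bars). IGF2 lies far to the right at 5280 and 4698 RPKM, and the widest gap between the libraries is that of H19, at 241 and 97.8 RPKM.

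IGF2 (RefSeq NM_000612) was the most abundant record of the mRNA library and ranked 3 in the RNC-mRNA library. Its 5280 RPKM made up 1.14% of the summed RPKM of the mRNA library, and its 4698 RPKM made up 1.02% of that of the RNC-mRNA library. The relative ratio was -0.13 (counting interval -0.15 to -0.11, on at least 54621 and 55866 reads). IGF2 was thus slightly lower on ribosomes than the median gene, and 40.2% of expressed genes had a lower ratio. The 58 genes averaging 1000 RPKM or more had a median relative ratio of -0.08, with the middle 50% between -0.14 and 0.09. The genes nearest to IGF2 in both log2 levels, over the 2 libraries, were MTRNR2L2 (distance 0.02), GAPDH (0.21) and RPS2 (0.40).

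Other records share the IGF2 locus. IGF2-AS, an antisense transcript within it, had 19.9 and 23.4 RPKM (relative ratio 0.27, interval 0.11 to 0.44). IGF2 stood 265 times as high as IGF2-AS in the mRNA library and 201 times in the RNC-mRNA library. No strand-preserving step is named in the labels, so reads of the 2 strands cannot be told apart. The read-through record INS-IGF2 was at 0.0404 and 0 RPKM, on 1 read and none at the fewest. MIR483, a microRNA precursor in an IGF2 intron, had 1.36 and 2.37 RPKM, but on as few as 1 and 2 reads.

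H19 (NR_002196), a long non-coding RNA, was the member at least 2-fold below the median gene. It had 241 RPKM and rank 226 among the RNAs of the mRNA library, against 97.8 RPKM and rank 730 in the other. The relative ratio was -1.26 (interval -1.33 to -1.19, on at least 5365 and 2503 reads), which is 2.40-fold below the median gene. Of the 1462 expressed records of the RefSeq type NR, 35.3% were at least 2-fold below, and 28.8% had a lower ratio than H19. This type is meant for non-coding transcripts, but here it also holds records of protein-coding genes such as KRT8 (0.22) and DHX9 (0.35). The NR records are therefore not a set of non-coding RNAs alone. Of the 87 NR records averaging 50 RPKM or more, which include H19, KRT8 and DHX9, 8 (9.2%) were at least 2-fold below. The median of the 87 was 0.15. Of the 681 genes averaging 100 RPKM or more, 9 (1.32%) were at least 2-fold below the median gene, and 3 of these had a lower ratio than H19. The nuclear MALAT1 (316 and 89.4 RPKM, -1.78), the matrix glycoprotein FN1 (-1.42) and the ferritin light chain FTL (-1.25) were also among the 9. Over the 2 libraries, the nearest genes to H19 in both log2 levels were the ribosomal RNA record RNA5-8S5 (distance 0.29), FN1 (0.34) and MALAT1 (0.41).

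The ratio of IGF2 to H19 needs no scaling between the libraries. It was 21.9 and 48.0, a 2.19-fold difference (counting interval 2.09 to 2.30).

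H19 is also the host of miR-675, whose hairpin is cut from its first exon. The mature arms are shown because H19 is their host transcript, with the seed (bases 2 to 8) in capitals. They are RefSeq sequences of build GRCh38.p14, where both lie on the minus strand at chr11:1996800-1996822 and chr11:1996768-1996787.
hsa-miR-675-5p: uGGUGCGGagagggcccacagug
hsa-miR-675-3p: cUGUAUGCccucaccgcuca
The MIR675 precursor record was at 0 RPKM in both libraries. Neither library was made to hold mature microRNAs, since inserts of 120 to 200 bp were prepared from poly(A) RNA.

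The letters that pair with these seeds were searched on the sense strand of the 3' untranslated regions (UTRs) of the coding members, in the GENCODE release 29 transcript nearest in length to the deposited record. The 7 bases CCGCACC, which pair with the 5p seed, were found in none of the 9 and in 1 place of the H19 transcript itself, and 3.95% of 11268 expressed coding records hold them in the 3' UTR. The 7 bases GCATACA, which pair with the 3p seed, were found in 5.88% of those records. They occurred in 2 places each in IGF1R and IRS2. Long UTRs hold any such word more often: it was found in 27.3% of the UTRs of at least 5000 nt, and the IGF1R UTR has 7087 nt. It was found in 12.8% of the UTRs of 3000 to 5000 nt, and the IRS2 UTR has 3606 nt. These shares count UTRs with at least 1 place. The 2 places in each gene are shown with the matching bases in capitals, from bases 5825 and 10835 of the IGF1R transcript and bases 7552 and 7926 of the IRS2 transcript.
IGF1R, match 1: gaccatgaaacatttGCATACAcatcgtct
IGF1R, match 2: ttcatgatgattacaGCATACAcagtgatc
IRS2, match 1: agaagatgtaccaatGCATACAttaagaat
IRS2, match 2: agaagacataccgatGCATACAtcaagaat
A match of this kind describes letters and shows no binding.

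The 3 receptor genes all lay below the median gene, by less than 2-fold. IGF2R, the mannose 6-phosphate receptor that clears IGF2, had 18.3 and 14.5 RPKM. Its relative ratio was -0.29 (interval -0.39 to -0.19). INSR, the insulin receptor, one isoform of which binds IGF2 with high affinity, had 9.41 and 5.99 RPKM and the lowest ratio of the coding members (-0.61, interval -0.77 to -0.46). IGF1R, the main signalling receptor for IGF2, had 6.36 and 5.26 RPKM (-0.23, interval -0.39 to -0.08). The order of levels was the same in both libraries, IGF2R above INSR above IGF1R, and there is no replicate spread to set the gaps against.

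The balance of the 2 kinase receptors differed between the 2 libraries, with intervals that cover counting error only. IGF1R stood at 0.675 and then 0.880 of the INSR level, a 1.30-fold difference (interval 1.12 to 1.51). IGF2R to INSR differed by 1.25-fold between the libraries (interval 1.10 to 1.42). IGF2R to IGF1R was 2.87 and 2.76, a difference of 0.961-fold with an interval of 0.845 to 1.09 that spans 1. The table has 1 record for INSR, so its isoforms were not told apart.

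The 2 adaptor genes lay on opposite sides of the median gene. IRS1 had 4.06 and 6.13 RPKM. At 0.62 it had the highest relative ratio of all members, above that of 93.7% of expressed genes. Its interval of 0.15 to 1.13 rests on the fewest reads that explain its values, 57 and 99, which go with a transcript of 1456 nt. At the length nearest a reference, 10192 nt, the same RPKM values mean more reads and a narrower interval. The levels of IRS2 were 2.15 and 1.47 RPKM (-0.48, interval -0.88 to -0.15), with no fewer than 145 and 114 reads. IRS1 was 1.89 times as high as IRS2 in the first library and 4.17 times in the second, a 2.21-fold difference (conditional exact interval 1.44 to 3.40). This interval, from the fewest reads too, does not reach 1, but it covers counting error only and there is no replicate spread to set it against.

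**Figure D2:**
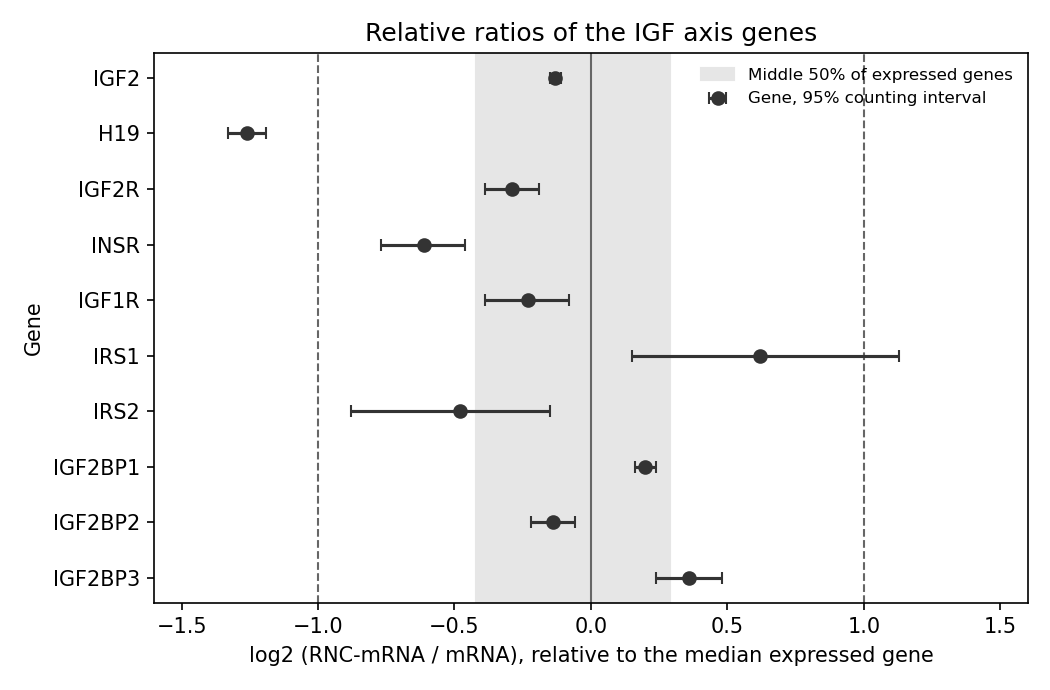
Relative log2 ratio of each member (points) with its 95% counting interval (bars), the middle 50% of expressed genes (grey band, -0.42 to 0.29) and the 2-fold lines (dashed). H19 lies beyond the lower 2-fold line at -1.26. INSR (-0.61) and IRS2 (-0.48) lie below the grey band, and IRS1 (0.62) and IGF2BP3 (0.36) lie above it.

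The transcript lengths that give whole reads, nearest to a reference, were at least 6 kb for IGF2R, INSR, IGF1R, IRS1, IRS2 and IGF2BP1, from 6998 nt for IRS2 to 11242 nt for IGF1R. The 1908 expressed genes of that length had a median relative ratio of -0.02. Low level went with low ratios, and the 6893 genes averaging between 1 and 10 RPKM had a median of -0.18, with 19.9% at least 2-fold below. IGF1R, INSR, IRS1 and IRS2 are in that range. The part of level in their ratios was not tested.

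The IGF2BP genes were expressed in the order IGF2BP1, IGF2BP2, IGF2BP3 in both libraries. These proteins bind mRNAs through paired RNA recognition motifs and KH domains and are known to stabilise them. IGF2BP1 had 94.8 and 106 RPKM (0.20, interval 0.16 to 0.24). IGF2BP2, the paralog that stays on in many adult tissues, had 68.2 and 60.3 RPKM (-0.14, interval -0.22 to -0.06). IGF2BP3 had 25.3 and 31.7 RPKM and the highest ratio of the family (0.36, interval 0.24 to 0.48). None of the 3 was 2-fold off the median gene.

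Within the family, IGF2BP2 took a smaller share of the summed level in the RNC-mRNA library. It made up 36.2% of the family's 188 RPKM in the mRNA library, against 30.4% of its 198 RPKM. IGF2BP1 made up 50.3% and 53.6%, and IGF2BP3 made up 13.4% and 16.0%. The ratio of IGF2BP1 to IGF2BP2 was 1.39 and 1.76, a 1.27-fold difference (interval 1.19 to 1.35). IGF2BP2 to IGF2BP3 differed by 0.708-fold (interval 0.642 to 0.781). IGF2BP1 to IGF2BP3 differed least, by 0.896-fold (interval 0.823 to 0.976).

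**Figure D3:**
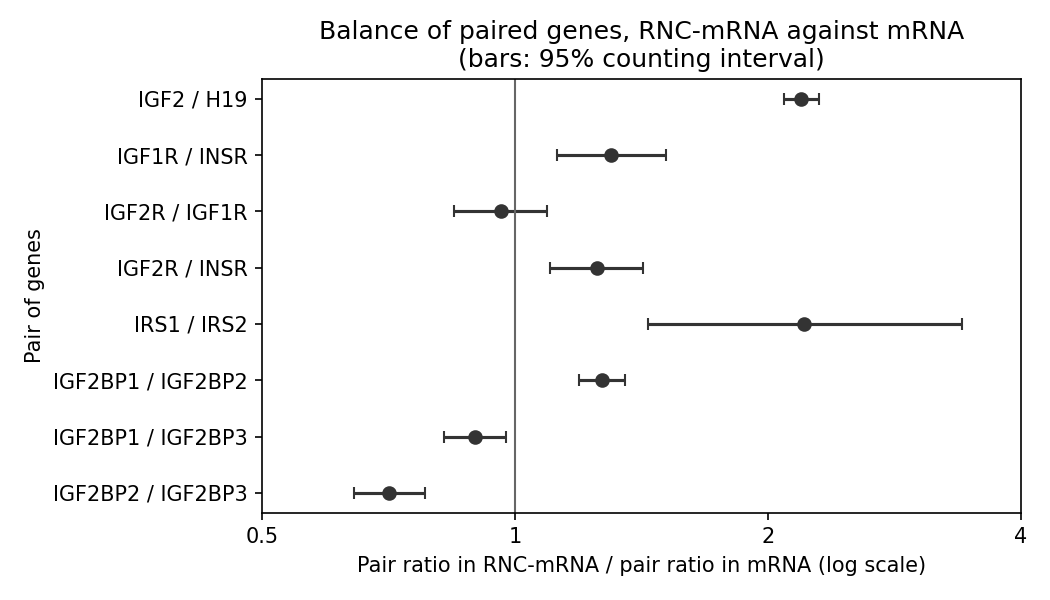
Ratio of one gene to another within the RNC-mRNA library, divided by the same ratio within the mRNA library (points, log axis), with 95% counting intervals (bars) and a line at 1. IGF2 to H19 (2.19) and IRS1 to IRS2 (2.21) lie farthest from 1, and the interval of IGF2R to IGF1R spans 1.

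The 3 IGF2BP genes are textbook targets of the let-7 microRNAs, which repress fetal genes in mature tissue. Of the 9 let-7 family 5p arms, all carry the same seed (in capitals), so that 1 site in a UTR can pair with any of them, and 5 are shown for how the rest of the arm varies. They are RefSeq sequences of build GRCh38.p14.
hsa-let-7a-5p: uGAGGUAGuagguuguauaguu
hsa-let-7b-5p: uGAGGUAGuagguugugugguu
hsa-let-7d-5p: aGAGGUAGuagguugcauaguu
hsa-let-7g-5p: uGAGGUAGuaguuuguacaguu
hsa-miR-98-5p: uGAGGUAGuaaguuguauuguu
The 7 bases CTACCTC, which pair with that seed, were searched as above on the sense strand. They were found in the 3' UTR of 9.98% of the 11268 expressed coding records, and of 36.3% of those with a UTR of at least 5000 nt. All 3 IGF2BP genes held them. IGF2BP1 held 4 in 6206 nt, and 7 of all 11268 records (0.0621%) held 4 or more, as did 0.434% of those with a UTR of at least 5000 nt. IGF2BP2 held 1 in 1792 nt and IGF2BP3 held 1 in 2153 nt. Of the UTRs of 1500 to 3000 nt, 12.9% held at least 1. The places are shown with the matching bases in capitals. In IGF2BP1 they start at bases 3700, 6337, 6991 and 7636 of the transcript, in IGF2BP2 at base 3200 and in IGF2BP3 at base 2657.
IGF2BP1, match 1: tgtgtgcgaagtaaaCTACCTCaaggtatg
IGF2BP1, match 2: cagcagtgctagtaaCTACCTCacagagcc
IGF2BP1, match 3: gtataaatggattaaCTACCTCaatcctta
IGF2BP1, match 4: tcacttttgttttatCTACCTCttagcaaa
IGF2BP2: aacacacagaagaagCTACCTCaggtgttt
IGF2BP3: tgcatttttactcaaCTACCTCaggtattc
In IGF2BP1, 3 of the 4 matches are followed by an A, the letter that completes the longest class of seed match, and so are the matches of IGF2BP2 and IGF2BP3. Of the other coding members, IGF1R held 2 matches, INSR 1 and IRS2 1, while IGF2, IGF2R and IRS1 held none in the UTRs searched. The 2281 nt of the H19 transcript held none. Over all expressed coding records the median relative ratio was 0.03 both with and without such a match.

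Of the 12 let-7 and miR-98 precursor records, 10 were at 0 RPKM in both libraries. MIRLET7I was at 1.24 and 0 RPKM, and MIR98 at 0.872 and 0 RPKM. The host transcript MIRLET7BHG had 6.95 and 2.03 RPKM (-1.69), and the host transcript MIRLET7DHG had 1.54 and 0.803 RPKM (-0.82). Mature let-7 was not measured. As for miR-675, libraries of 120 to 200 bp inserts from poly(A) RNA were not made to hold such short RNAs. Values of 0 here do not show that let-7 was absent.

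LIN28A and LIN28B, which block let-7 maturation, were expressed. LIN28A had 13.2 and 16.5 RPKM (0.36), and LIN28B had 4.62 and 7.16 RPKM (0.66). In the list of LIN28 and let-7 target genes, 14 of 15 expressed genes lay above the median gene, 2 of them by at least 2-fold and none below by 2-fold. Of all expressed genes, 1.37% were at least 2-fold above and 11.8% at least 2-fold below. The list's median was 0.64, against 0 over all expressed genes. Genes averaging 10 to 100 RPKM had a median of 0.11, and those of 100 RPKM or more had 0.17. The list was chosen with earlier results of these data known, so its median is not independent of them. Any part of let-7 in these ratios was not tested. The chromatin protein HMGA1 was the most abundant (408 and 612 RPKM, 0.62). TRIM71, a stem cell ubiquitin ligase, was highest (5.69 and 13.5 RPKM, 1.28), followed by MYCN (18.2 and 38.3 RPKM, 1.11), and CCND2 was lowest (-0.14, interval -0.51 to 0.22).

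Of 12 mRNAs reported as IGF2BP targets, 11 were expressed and 10 of these lay above the median gene (list median 0.64). This list overlaps the let-7 list, for example in MYC, HMGA2 and LIN28B, and was likewise chosen with earlier results of these data known. ACTB, whose mRNA is localised by IGF2BP1, had 1812 and 2938 RPKM (0.74), and MYC had 27.9 and 43.1 RPKM (0.66). CD44, a hyaluronan receptor, was highest (3.53 and 7.04 RPKM, 1.01), and MAPK4 was lowest (-0.32, interval -0.83 to 0.15). IGF2 and H19, which IGF2BP proteins also bind, had the ratios given above, both below the median gene.

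The IGF-binding proteins carry IGFs outside the cell and limit their access to receptors. Of 15 ligands, binding proteins and proteases, 6 were expressed (median -0.15), with 1 at least 2-fold above and none 2-fold below. Over all expressed genes the shares were 1.37% above and 11.8% below. IGF1 was at 0.408 and 0.245 RPKM, and INS was at 0 in both libraries, so of the 3 ligand genes IGF2 alone was above 1 RPKM. IGFBP2 had 46.2 and 32.3 RPKM (-0.48, interval -0.65 to -0.31) and IGFBP4 had 42.5 and 36.8 RPKM (-0.17). The stanniocalcin STC2, an inhibitor of the protease that cuts IGFBP4, was lowest at -0.56 (30.5 and 20.1 RPKM). IGFBP7 was highest (1.10 and 2.48 RPKM, 1.14, interval 0.20 to 2.30), on as few as 12 and 31 reads. The protease gene PAPPA was at 0.161 and 0.0411 RPKM.

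Downstream of the receptors, 34 of 37 adaptor and PI3K-AKT-mTOR genes were expressed. Of these, 26 lay above the median gene (median 0.21). None was 2-fold off in either direction, where 13.1% of all expressed genes were. The lipid phosphatase INPPL1 had 90.5 and 64.3 RPKM (-0.45), and EIF4EBP1, a translation repressor inhibited by mTOR, had 66.3 and 79.9 RPKM (0.31). PTPN1, a phosphatase that switches off INSR, was highest (27.1 and 49.6 RPKM, 0.91), and the adaptor SH2B2 was lowest (14.0 and 7.34 RPKM, -0.89).

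Among genes around IGF2 and H19 on chromosome 11, 16 of 23 were expressed (median -0.13). Of these 16, 3 (18.8%) were at least 2-fold below the median gene, where 11.8% of all expressed genes were, and none was 2-fold above. With so few genes this count is near the background. The muscle troponin gene TNNT3, near H19, had 35.4 and 4.20 RPKM (-3.01, interval -3.46 to -2.63). The imprinted antisense RNA KCNQ1OT1 had 17.8 and 2.74 RPKM (-2.62), and the troponin gene TNNI2 had 5.89 and 1.71 RPKM (-1.69). The tetraspanin CD81 was the most abundant (196 and 206 RPKM, 0.11), and the mitochondrial ribosomal protein gene MRPL23 followed (114 and 90.2 RPKM, -0.30). MIR483 was highest at 0.79, with an interval of -3.43 to 6.72 that includes 0.

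IGF2R also sorts lysosomal enzymes. In that mannose 6-phosphate pathway all 16 listed genes were expressed, 9 below and 7 above the median gene (median -0.06). M6PR, the second receptor of the pathway, had 69.7 and 96.4 RPKM and the highest ratio (0.51, interval 0.42 to 0.59), whereas IGF2R lay at -0.29. The cathepsin CTSD, a cargo, had 359 and 304 RPKM (-0.20). The urokinase PLAU, whose receptor is bound by IGF2R, was the 1 gene at least 2-fold below (10.7 and 4.34 RPKM, -1.24). That is 6.25% of the list, against 11.8% of all expressed genes.

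Proteins that share ribonucleoprotein particles or m6A-marked RNA with the IGF2BPs had 28 of 29 genes expressed, 21 of them above the median gene (median 0.23). PABPC1 (490 and 556 RPKM, 0.22) and YBX1 (372 and 553 RPKM, 0.61) were the most abundant. YTHDF3, a reader of m6A, was highest (0.88), and METTL3, the m6A-writing enzyme, was the 1 gene at least 2-fold below (15.3 and 5.72 RPKM, -1.36). That is 3.57% of the expressed genes of the list, against 11.8% of all expressed genes.

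Over all 12 related lists together, the 4 lists of cell type markers included and each gene counted once, 153 genes were expressed. Of these, 5.88% were at least 2-fold below the median gene and 3.92% at least 2-fold above, against 11.8% and 1.37% of all expressed genes. The shares were 8.88% and 1.33% among expressed coding (NM) records, and 3.36% and 0.858% among genes averaging 10 to 100 RPKM. The part of record type and level in the shares of the lists was not tested.

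**Figure D4:**
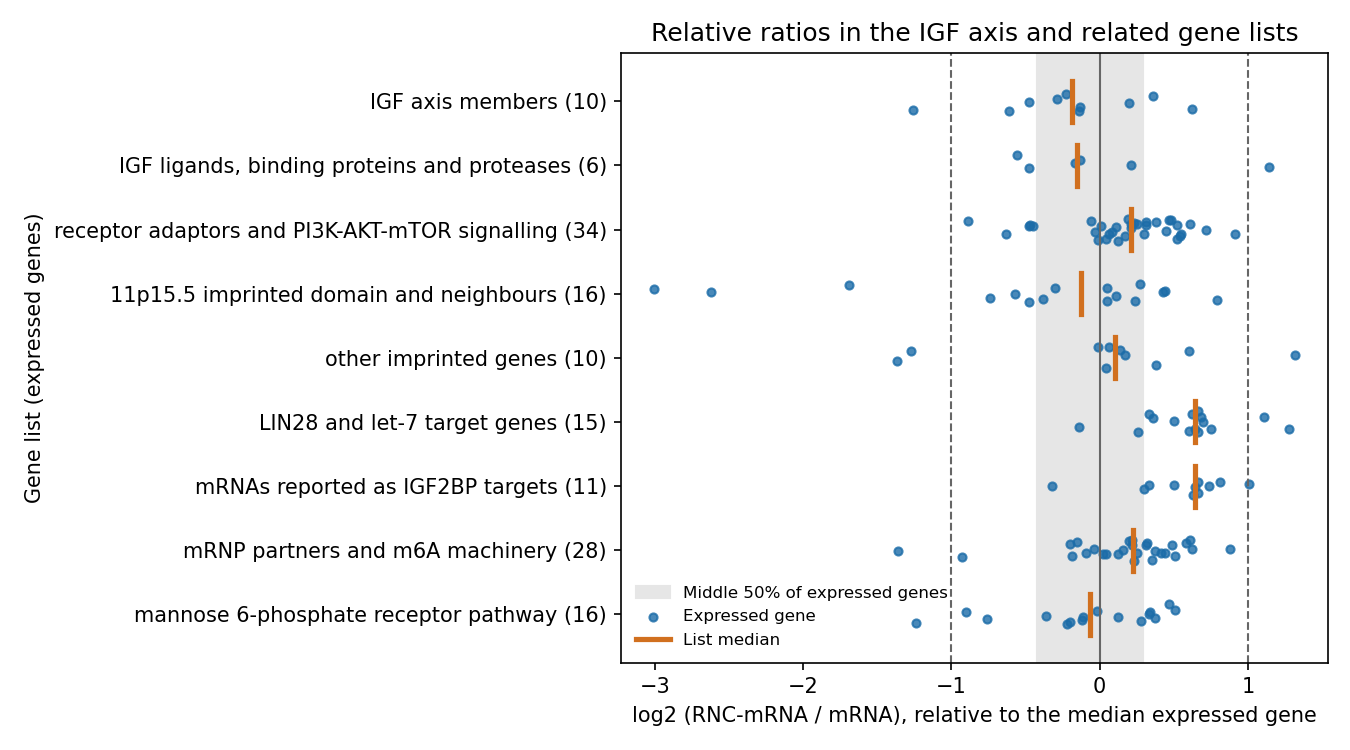
Relative log2 ratio of every expressed gene (points, spread vertically for legibility) in the IGF axis and 8 related lists, with list medians (orange), the middle 50% of expressed genes (grey) and the 2-fold lines (dashed). The let-7 and IGF2BP target lists have medians of 0.64, and the farthest points to the left are TNNT3 (-3.01) and KCNQ1OT1 (-2.62) of the chromosome 11 region.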

How the data were processed

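The authors deposited RPKM values, per the file headers, for 23709 gene symbols with 1 RefSeq record each, 1 column per library. The submitters' processing notes name hg19 as build. The aligner, the counter and the treatment of multi-mapping reads are not given in the sources used here. Libraries were amplified by 12 PCR cycles, per the labels' protocols.

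A score of how near to whole the reads were, over genes of known GENCODE release 29 length, gave a coarse total at its lowest near-full peak. The total of each library was the whole number near that peak at which most genes held whole reads within rounding. For mRNA these were 2594 of 17659 genes, against 1753 at the next best number nearby. For RNC-mRNA they were 2346 of 16904, against 1656. The fewest whole reads fitting both values of a gene, within a relative error of 2e-07 beyond rounding, gave the intervals, which carry no pseudocount. Intervals of pair ratios used a log-scale normal approximation, or the conditional exact method where stated. The fewest reads summed to 86.8% and 86.9% of the totals. Steps were tested on simulated data. Python 3.11.15 and scipy 1.17.1 were used.

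Named genes are the 10 members, and in each list the 2 most abundant, the highest and the lowest ratio, and genes beyond 2-fold where at most 5 were. LIN28A, LIN28B, IGF1, INS, PAPPA, KRT20, CDX2, THY1, PTPRC, FTL and other genes outside that rule were named after their values were seen. The members and lists were chosen with earlier results of these data known. Other pseudocounts, filters and centres were tried. Centring on genes of at least 6 kb was added after seeing the data. Promoter windows and microRNA sequences of IGF2, IGF2BP1 and MIR483 were not used here. Differences between lists were not tested.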

Additional observations from a re-analysis of the deposited data

How the results depend on the processing

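The members' counts, 1 at least 2-fold below the median gene and 0 above, were the same under all 11 alternatives. H19 ranged from -1.34 to -1.16, INSR from -0.69 to -0.50 and IRS1 from 0.53 to 0.72, and no member changed sign in any alternative run (IRS2 in 10, since it was left out where a mean of 5 RPKM was required). IGF2 lay between -0.21 and -0.03 and IGF2BP2 between -0.22 and -0.04, close enough to 0 that the centre sets their distance from the median gene. Over the related lists, 9 genes were at least 2-fold below and 6 above. With a pseudocount of 1 RPKM these were 5 and 3. When a mean of 5 RPKM was required, where fewer genes were counted, 3 were above. With no filter on low values, where more genes were counted, 18 were below. No paired analysis was possible because each level has 1 library. Among the members, the counting intervals were widest for IRS1 and IRS2, and those of IGFBP7, NNAT and MIR483 were wider still.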

Other observations

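Imprinted genes outside the IGF2 and H19 region had 10 of 22 listed members expressed (median 0.10). Of these 10, 2 were at least 2-fold below the median gene and 1 above. Over all expressed genes the shares were 11.8% below and 1.37% above. PEG10, a retrotransposon-derived gene expressed from the paternal allele like IGF2, had 75.4 and 183 RPKM (1.32, interval 1.27 to 1.37). GNAS, which encodes a G protein subunit, was the most abundant (840 and 1068 RPKM, 0.38), and SNURF followed at 146 RPKM in both libraries (0.04). SNURF shares its transcript with SNRPN, so the reads of these 2 records are uncertain. L3MBTL1 was lowest (1.94 and 0.670 RPKM, -1.37), and NNAT was at -1.27 with an interval of -2.88 to 0.01.

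The 7 expressed coding records with 4 or more let-7 seed matches in the 3' UTR were TRIM71, HIC2, IGDCC3, IGF2BP1, LIMD2, LIN28B and SMC1A, named after their counts were seen. TRIM71 held the most, 6. Their relative ratios went both ways, from -0.42 for LIMD2 to 1.28 for TRIM71.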
